A study of Mus musculus with 6 samples.

Results

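The genes described here are 50 members of the DNA replication machinery, measured in mouse embryonic stem cells that carry the R783H change in Trim71 and in their wild-type (WT) counterparts. They were chosen by name for their roles in origin licensing, helicase assembly, DNA synthesis, nucleotide supply and histone deposition; no measured value enters the rule, but earlier results of these data were known when the list was made. All 50 were found among the 27179 identifiers of the deposited count table, and all 50 passed the filter on low counts, as did 14199 genes in all. Trim71 belongs to the TRIM-NHL proteins, which bind mRNAs, and R783H is an amino-acid change linked to hydrocephalus. Cells of both groups had the ES-E14TG2a background, carried a FLAG tag on Trim71 (FLAG-Trim71 or FLAG-Trim71 (R783H)) and grew on gelatin in 2i + Lif medium, which blocks MEK and GSK3 and supplies leukemia inhibitory factor. Poly(A) RNA was sequenced from 3 libraries of each group, named A, B and C. Whether a letter stands for a clone, a culture or a preparation is not in the labels, so the tests measure the spread between these libraries, which may be technical.

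Before a cell copies its DNA, the origin recognition complex, CDC6 and CDT1 load the MCM2-7 ring onto origins, a step called licensing. In S phase the DBF4-CDC7 kinase, CDC45 and the GINS complex turn the ring into an active helicase, and polymerases alpha, delta and epsilon copy the strands behind it with the PCNA clamp. Embryonic stem cells spend much of their cycle in S phase, and many of these genes are textbook targets of the E2F transcription factors.

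Total counts ran from 20894277 to 25174121 in WT and from 27807385 to 29079670 in R783H, with all R783H libraries sequenced more deeply than any WT one. The lowest count of any of the 50 genes in a library was 657, so none was near the floor of 3 counts. Trim71 mRNA had a level of 143.7 ± 12.8 CPM (counts scaled to equal library totals, with TMM factors for composition) in R783H, against 140.5 ± 16.4 in the WT libraries (SD, n = 3 each). Because the change is a single residue, this level is no check of the labels. Reads of overlapping genes may have been split or shared for Orc1, Orc2, Orc4, Orc5, Orc6, Mcm7, Cdc45, Gins2, Rfc2, Rfc4, Rfc5, Rpa1, Pole, Pole2, Fen1, Lig1, Tk1 and Chaf1a, which share exon sequence with a neighbour, and for Cdc6 and Rfc5, which have near-identical copies elsewhere. The 8 markers of mouse pluripotency summed to 6217 to 6299 CPM in R783H and 6548 to 6643 CPM in WT. The 7 markers of fibroblast feeders summed to 2.185 to 3.127 CPM against 3.281 to 3.862, the 6 of primitive endoderm to 10.18 to 11.04 against 5.138 to 7.476, the 5 of neural progenitors to 34.04 to 37.03 against 32.11 to 32.63, and the 5 of mesoderm to 36.93 to 42.2 against 63.12 to 67.4. Some of the sums hide unlike changes within a list, while all 5 mesoderm markers were called lower. Of the primitive endoderm markers Gata4 rose (6.68 CPM in R783H against 3.19 in WT) and so did Sox17 (0.897 against 0.369). Gata6, Pdgfra and Dab2 were not called, and Sox7 was lower (0.102 against 0.667) and not tested. Thy1 was the only feeder marker called, at 0.194 CPM in R783H against 1.31 in WT. Sox1 rose (13.5 against 8.51), while Nes was not called (21.6 against 23.5). Of the pluripotency markers, Tfcp2l1 was called higher and Pou5f1, Nanog and Zfp42 lower. The groups overlapped for Tfcp2l1 (log2 fold change 0.17), and its call was lost without R783H A, R783H C, WT A or WT B. With an offset for transcript length and GC content Tfcp2l1 was instead called lower (-0.16). No marker was at 0 in all 6 libraries, and the part of these lists in the results below was not tested. Fewer cells in S phase and less of these RNAs per cell cannot be told apart in such bulk samples.

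Most of the replication genes were lower in R783H, by modest amounts. Of the 50, 36 fell (72.0%), 2 rose and 12 did not pass the test, by edgeR's quasi-likelihood test at an adjusted p under 0.05 over all genes. Among all tested genes 64.5% were called, 30.9% lower and 33.5% higher. The median log2 fold change of the 50 was -0.26, beside 0.03 for all genes, and their range was -1.07 to 0.25. The fall reached 1.5-fold in just 5 of them, Dut, Rrm2, Rpa2, Mcm5 and Pcna, where 24.6% of all genes were called with at least that change, 9.54% of all genes on the lower side. The share of the 50 that fell was thus above that of all genes, and the share that fell at least 1.5-fold was close to it. CPM of the groups did not overlap for 37 of the 50 on the lower side and 2 on the higher, against 33.1% and 35.0% of all genes (68.1% in either direction). Scaled by library size alone, 31 of the 50 were called lower and 5 higher, against 25.4% and 40.0% of all genes. The median of the 50 genes, relative to the WT mean, was -0.28, -0.24 and -0.30 for R783H A, B and C and lay from -0.02 to 0.02 for the WT libraries.

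**Figure D1:**
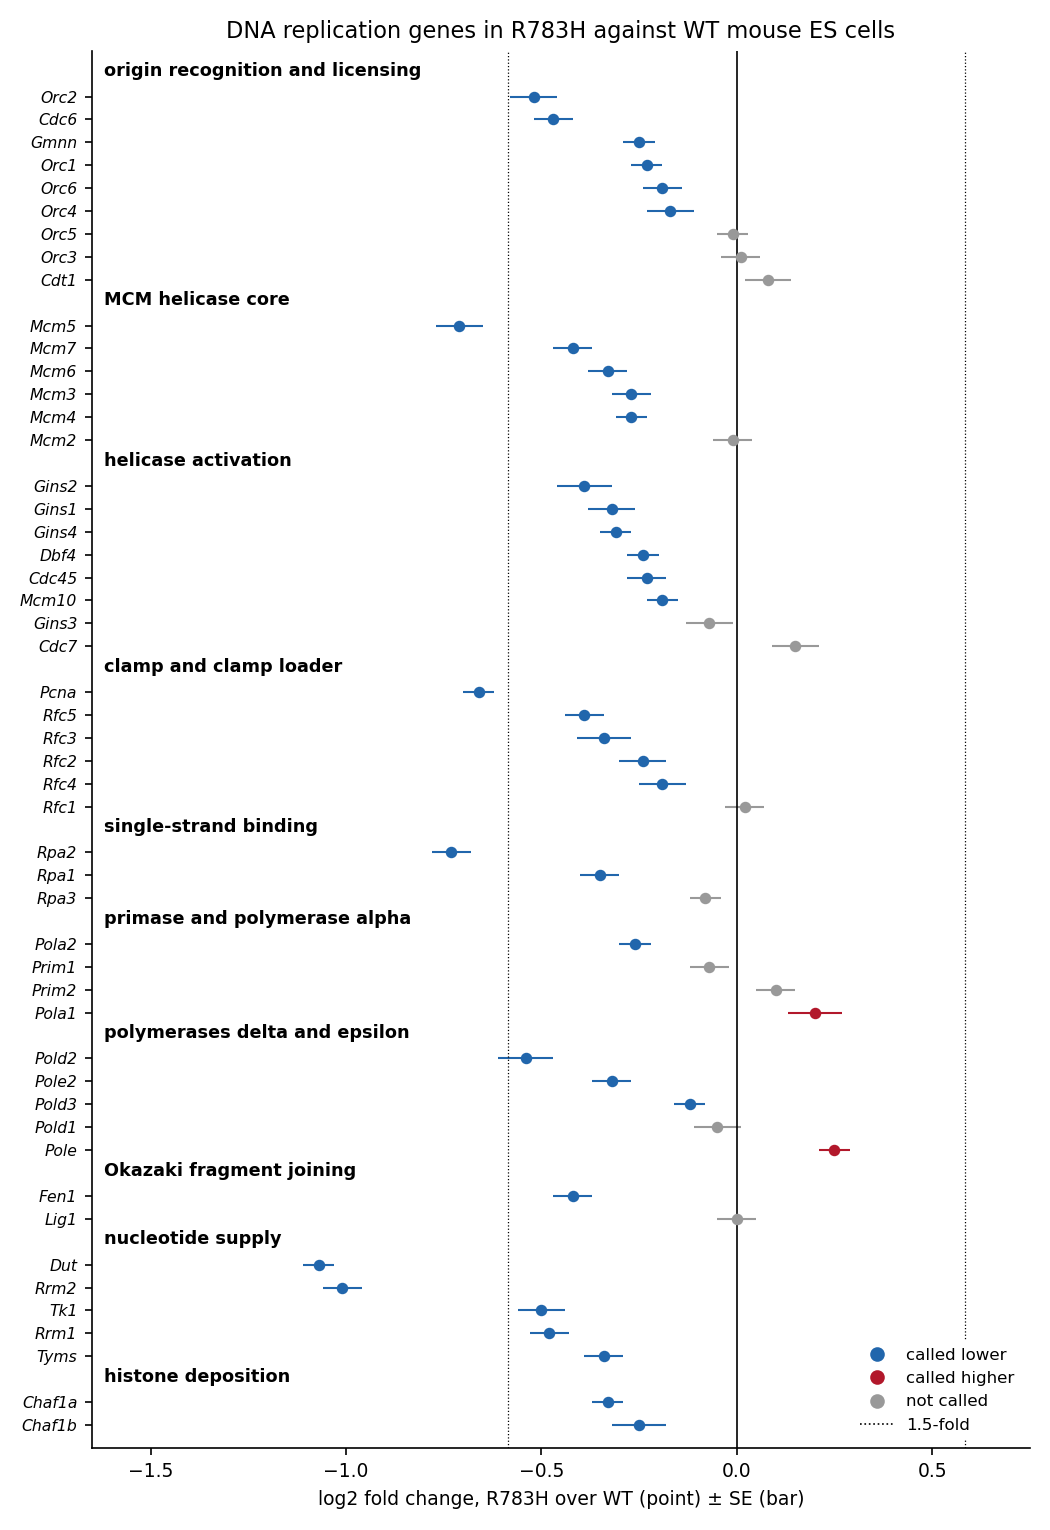
Log2 fold change (R783H over WT) of each of the 50 replication genes, grouped by role; points are edgeR estimates, bars their SE, dotted lines mark 1.5-fold. Blue genes were called lower (36), red higher (2) and grey were not called (12); Dut and Rrm2 lie farthest to the left.

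Nucleotide supply held the largest changes, and all 5 of its genes fell. Dut encodes the dUTPase that keeps uracil out of DNA and makes the precursor of dTMP (Entrez 110074, chr2:125247248-125259049 in GRCm38). It stood at 132.8, 141.4 and 135.2 CPM in R783H A, B and C and at 291.3, 287.6 and 280.8 CPM in WT. The groups lay far apart, with R783H at 47.6% of WT (log2 fold change -1.07, SE 0.04, adjusted p = 2.43e-08 by edgeR's quasi-likelihood test).

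Rrm2 is the small subunit of ribonucleotide reductase, the enzyme that turns ribonucleotides into deoxyribonucleotides (Entrez 20135, chr12:24708254-24714146). Rrm2 has a near-identical copy, Gm48455, over part of its length (95.5% over 419 nt). Its CPM was 212.2, 233.8 and 218.2 in R783H and 455.3, 442.5 and 441.5 in WT. Every R783H library was at about the same low level, 49.6% of WT in the mean (log2 fold change -1.01, SE 0.05, edgeR adjusted p = 4.9e-08). The large subunit Rrm1 fell less, from 422.6 ± 7.03 to 303.1 ± 16.6 CPM (log2 fold change -0.48, SE 0.05, n = 3 each). Expressed as a log2 ratio, Rrm2 to Rrm1 was -0.48, -0.46 and -0.41 in R783H and 0.09, 0.06 and 0.09 in WT. The gap of -0.53 gave p = 0.1 in a two-sided exact permutation test, the smallest that 3 against 3 libraries allow. This ratio and those below were chosen after the values were seen, so their p-values only describe the gaps.

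Thymidylate synthase (Tyms), which makes dTMP, fell by 0.34 on the log2 scale (SE 0.05), and thymidine kinase (Tk1), which salvages thymidine, fell by 0.50 (SE 0.06). A stretch of the long Tyms transcript has near-identical copies in other genes, so its count is uncertain to that extent.

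Of the 9 genes of origin recognition and licensing, 6 fell and 3 did not pass. Orc2, a core subunit of the origin recognition complex, changed most. Its CPM was 105.7, 97.0 and 111.0 in R783H against 143.7, 150.1 and 156.6 in the WT libraries, without overlap (log2 fold change -0.52, SE 0.06, edgeR adjusted p = 1.23e-05). Cdc6, the loader that joins the origin complex to MCM, fell by 0.47 on the log2 scale (SE 0.05), from 128.4 ± 5.7 to 93.0 ± 2.6 CPM (n = 3 each). Its partner Cdt1 had 402.1 ± 29.3 CPM in R783H against 380.4 ± 14.0 in the WT libraries (log2 fold change 0.08, SE 0.06, edgeR adjusted p = 0.224), with overlap between the groups. On the log2 scale the ratio of Cdc6 to Cdt1 ran from -2.18 to -2.06 in R783H and from -1.59 to -1.54 in the WT libraries (two-sided exact permutation p = 0.1, n = 3 each).

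The remaining licensing genes moved little. Gmnn, which encodes geminin, the inhibitor of CDT1, fell by 0.25 on the log2 scale, and Orc1, the ATPase subunit that recruits CDC6, by 0.23. Orc6 fell by 0.19 and Orc4 by 0.17, whereas Orc3 (0.01, SE 0.05) and Orc5 (-0.01, SE 0.04) did not pass. Orc4 was not called when WT B or WT C was left out, at equal depth, or with scaling by library size alone (adjusted p from 2.45e-05 to 0.231 over its 14 alternatives with edgeR and DESeq2). Orc6 lost its call with scaling by library size alone (adjusted p from 5.65e-04 to 0.0581 over its alternatives with the same tools).

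The MCM2-7 ring, the core of the replicative helicase, showed unequal changes among its 6 subunits: 5 fell and Mcm2 did not pass. Mcm5 (Entrez 17218, chr8:75109468-75128439) stood at 646.8, 735.8 and 648.9 CPM in R783H A, B and C and at 1151, 1108 and 1055 CPM in WT, well separated (log2 fold change -0.71, SE 0.06, edgeR adjusted p = 1.38e-06). Mcm7 was at 392.8, 437.7 and 390.7 CPM against 564.9, 546.7 and 524.6 in the WT libraries (log2 fold change -0.42, SE 0.05). Mcm6 was at 434.4, 473.5 and 432.1 CPM against 571.4, 565.5 and 552.9 (-0.33, SE 0.05). In all 3 genes R783H B was the highest R783H library and still below every WT library.

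Mcm3 stood at 520.7, 553.8 and 494.8 CPM in R783H against 655.4, 637.3 and 603.7 in the WT libraries (log2 fold change -0.27, SE 0.05). Mcm4 stood at 343.7, 325.6 and 345.5 CPM against 402.6, 405.9 and 413.1 (-0.27, SE 0.04). Neither overlapped between the groups. Mcm2 was at 729.0, 791.8 and 722.4 CPM against 781.3, 757.9 and 715.9, so its libraries were intermingled (log2 fold change -0.01, SE 0.05, edgeR adjusted p = 0.903).

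Set against Mcm2, the log2 ratio of Mcm5 was -0.17, -0.11 and -0.15 in R783H and 0.56, 0.55 and 0.56 in WT. The gap of -0.70 had p = 0.1 in the two-sided exact permutation test, again the smallest possible. Because this pair was chosen after the values were seen, the p-value adds no support. Per kilobase of transcript, Mcm5 was the most abundant subunit in WT, at 327 CPM per kb, followed by Mcm2 at 223, and Mcm4 was the least at 113. In R783H Mcm2, at 222 CPM per kb, stood above Mcm5 at 200, and Mcm4 was again the least at 94.3. The highest subunit was 2.88 times the lowest in WT and 2.35 times in R783H. These levels use the longest coding transcript of each gene, so the order depends on the isoforms expressed, which were not measured. Mcm7 has a near-identical copy, Gm5487, and shares exon sequence with opposite-strand genes, so its counts are uncertain to the extent that such reads were split.

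**Figure D2:**
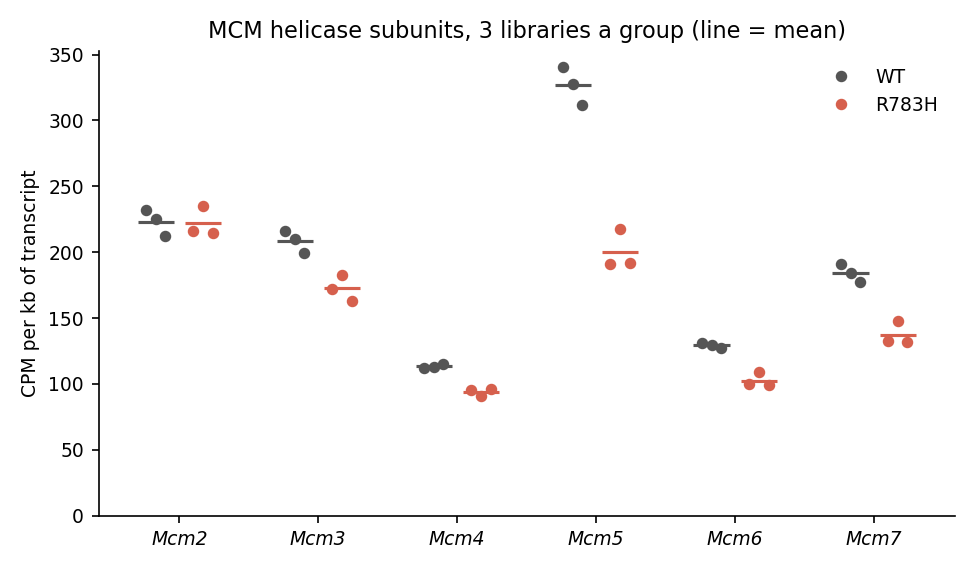
Level of the 6 MCM2-7 subunits in CPM per kb of transcript, 3 points per group (A, B, C from left) and a line at the mean. Mcm5 is the highest subunit in WT (327) and falls below Mcm2 in R783H (200 against 222), while the Mcm2 points of the groups overlap.

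E2F proteins bind letters close to TTTCCCGC, TTTCGCGC, TTTGCCGC or TTTGGCGC, and these were searched on both strands in RefSeq windows of GRCm38.p6. Each window had 300 bases around a start site, most of them upstream of it. That site can lie inside the annotated gene, as for Orc1, Lig1 and Mcm7. Of the 50 genes, 42 had a window. A match lay in 15 of them (35.7%), against 4.85% of the 10766 tested genes with a window and 2.26% of all windows. The 4 genes below were taken by size of change among the genes given library by library that hold a match, all of them MCM subunits, and the matched letters are in capitals. Where a match lay inside the annotated gene, no more than 30 bases are given. For Mcm7 this shows 1 of the 2 matches in its window.
Mcm5, chr8:75109309-75109467, plus strand: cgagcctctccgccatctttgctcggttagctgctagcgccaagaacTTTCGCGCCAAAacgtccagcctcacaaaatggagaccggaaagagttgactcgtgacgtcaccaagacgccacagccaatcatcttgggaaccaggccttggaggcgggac
Mcm6, chr1:128359706-128359905, minus strand: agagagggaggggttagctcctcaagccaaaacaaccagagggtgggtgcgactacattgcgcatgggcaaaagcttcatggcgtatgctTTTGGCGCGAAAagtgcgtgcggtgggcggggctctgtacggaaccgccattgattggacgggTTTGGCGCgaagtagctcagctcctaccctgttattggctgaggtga
Mcm7, chr5:138172030-138172059, minus strand: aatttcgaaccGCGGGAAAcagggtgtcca
Mcm3, chr1:20820266-20820295, minus strand: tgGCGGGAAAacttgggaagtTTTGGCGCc
In Mcm5 and Mcm6 a match on each strand overlaps, which gives runs of 12 capitals. Of the 15 genes with a match 9 fell, with a median log2 fold change of -0.23, and of the 27 without one 21 fell, with a median of -0.26. The windows of Dut, Rrm2, Rpa2 and Pcna held none of the 4 strings, and neither did that of Mcm2. The CCAAT letters, also searched on both strands, were in 24 of the 42 windows (57.1%), against 43.4% of tested genes and 37.4% of all windows. A match is only a description of these letters, and no binding was measured.

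Genes that activate the loaded helicase gave 6 falls among 8. Gins2, a subunit of the GINS complex, had 73.2, 84.0 and 69.2 CPM in R783H A, B and C and 102.0, 101.3 and 93.2 in WT, the largest change of the group and without overlap (log2 fold change -0.39, SE 0.07, edgeR adjusted p = 5.37e-04). The GINS subunits Gins1 and Gins4 fell by 0.32 and 0.31 on the log2 scale, and Gins3 was at -0.07 (SE 0.06) and did not pass. Dbf4, which activates the CDC7 kinase, fell by 0.24, while Cdc7 itself had 39.2 ± 1.6 CPM in R783H against 35.4 ± 2.52 in the WT libraries (log2 fold change 0.15, SE 0.06, edgeR adjusted p = 0.0639). Cdc7 was called higher without R783H B, without WT C and with scaling by library size alone (adjusted p from 0.0107 to 0.256 over its alternatives with edgeR and DESeq2). Cdc45, the helicase co-factor, fell by 0.23 and Mcm10, which helps the helicase start, by 0.19.

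The sliding clamp and its loader gave 5 falls among 6. Pcna (Entrez 18538, chr2:132249286-132253180), the ring that tethers polymerases to DNA, showed little spread, at 201.8, 204.1 and 206.5 CPM in R783H and 321.1, 326.0 and 322.7 in WT. R783H was at 63.1% of WT, with a log2 fold change of -0.66 (SE 0.04, edgeR adjusted p = 1.75e-07). Pcna has a near-identical copy, Pcna-ps2, over part of its 1518 nt (99.2% identity over 781 nt). Some reads of that stretch may not be told from those of the copy. Of the loader subunits, Rfc5 fell by 0.39 on the log2 scale, Rfc3 by 0.34, Rfc2 by 0.24 and Rfc4 by 0.19. The large subunit Rfc1 was at 223.7 ± 15.1 CPM against 221.3 ± 6.17 (log2 fold change 0.02, SE 0.05). Rfc4 was not called without WT B or with scaling by library size alone (adjusted p from 3.86e-04 to 0.0996 over its alternatives with edgeR and DESeq2).

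Replication protein A, the trimer that coats single-stranded DNA, showed a graded pattern. Rpa2 (Entrez 19891, chr4:132768360-132778746) had 100.6, 107.4 and 106.2 CPM in R783H against 178.3, 175.5 and 168.5 in the WT libraries, with no overlap (log2 fold change -0.73, SE 0.05, edgeR adjusted p = 2.64e-07). Rpa1 fell from 404.1 ± 8.15 to 317.4 ± 21.7 CPM (-0.35, SE 0.05, n = 3 each). Rpa3 was at 62.8 ± 0.993 CPM against 66.4 ± 0.197 and did not pass (log2 fold change -0.08, SE 0.04, edgeR adjusted p = 0.14), although its groups did not overlap. As a log2 ratio, Rpa2 to Rpa3 was 0.74 ± 0.07 in R783H against 1.39 ± 0.04 in the WT libraries (SD, n = 3 each; two-sided exact permutation p = 0.1). Per kilobase of the longest coding transcript the 3 subunits ranged over 1.24-fold in WT and 1.62-fold in R783H, where Rpa2 was the lowest. The isoforms expressed were not measured.

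**Figure D3:**
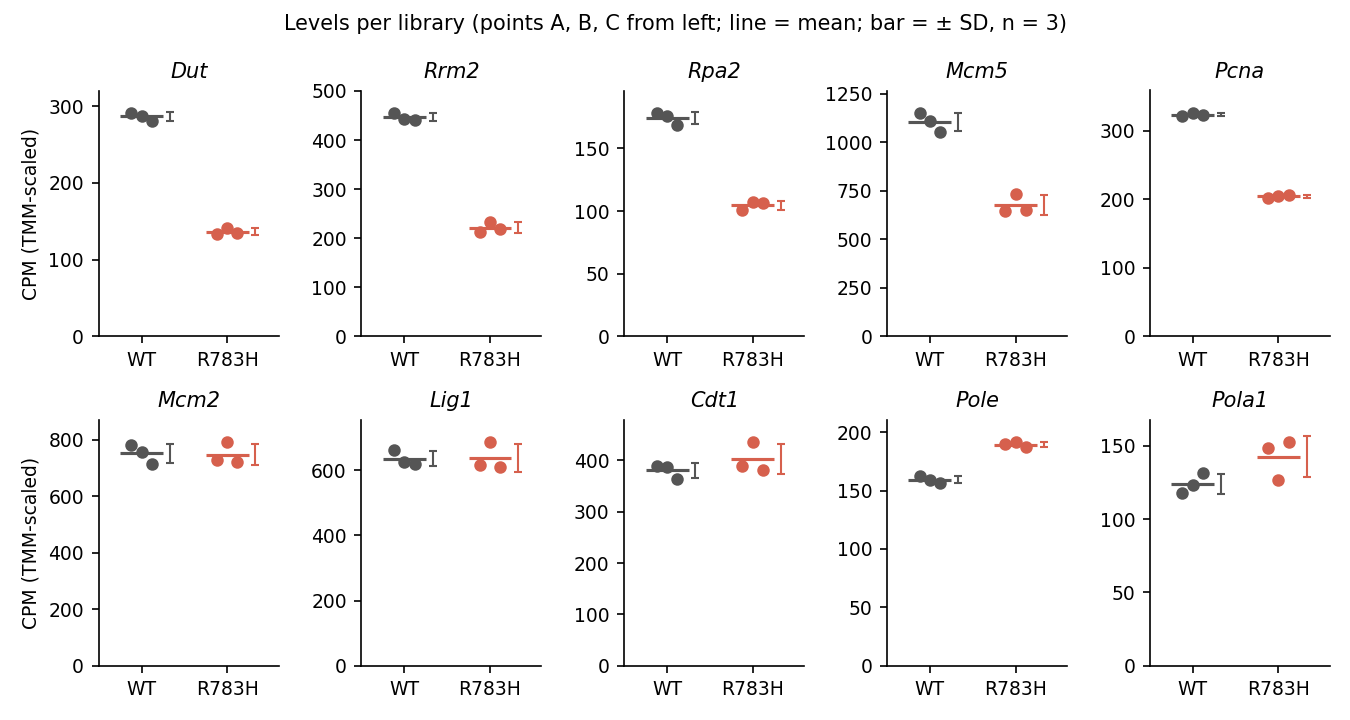
CPM per library (points, A, B, C from left), mean (line) and SD (bar, n = 3) for 10 replication genes, each axis starting at 0. In the upper row Dut, Rrm2, Rpa2, Mcm5 and Pcna are lower in all R783H libraries; in the lower row the groups overlap for Mcm2, Lig1, Cdt1 and Pola1, and Pole is higher in R783H.

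Primase and polymerase alpha, which lay down the primers, were mixed. Pola2, the regulatory subunit, fell (96.3, 97.8 and 94.6 CPM against 117.8, 114.2 and 114.8, log2 fold change -0.26, SE 0.04), and the groups were apart. The primase subunits Prim1 (-0.07, SE 0.05) and Prim2 (0.10, SE 0.05) did not pass. Pola1, the catalytic subunit, rose by the test (148.4, 126.8 and 152.5 CPM against 117.5, 123.3 and 131.2, log2 fold change 0.20, SE 0.07, edgeR adjusted p = 0.0244), but R783H B lay within the WT range. Its call was lost without R783H A, R783H C, WT A or WT B, which left log2 fold changes of 0.16, 0.14, 0.16 and 0.20, and its adjusted p over the alternatives ran from 9.11e-05 to 0.524 with edgeR and DESeq2.

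Among the subunits of polymerases delta and epsilon 3 fell and 1 rose. Pold2, an accessory subunit of polymerase delta, had 129.9, 149.4 and 124.7 CPM in R783H and 207.7, 196.3 and 181.7 in WT, without overlap (log2 fold change -0.54, SE 0.07, edgeR adjusted p = 5.13e-05). The catalytic subunit Pold1 stood at 168.5 ± 10.9 CPM against 174.8 ± 8.67 and did not pass (-0.05, SE 0.06). Between them, Pold2 to Pold1, the log2 ratio was -0.33 ± 0.07 in R783H against 0.16 ± 0.03 in the WT libraries (SD, n = 3 each; two-sided exact permutation p = 0.1). Pole2 fell by 0.32 on the log2 scale, and Pold3 by 0.12. Pold3 lost its call in 6 of 14 alternatives: without R783H A, WT A, WT B or WT C, with no filter on low counts and with scaling by library size alone (adjusted p from 6.92e-04 to 0.458 with edgeR and DESeq2).

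Pole, the catalytic subunit of the leading-strand polymerase, was higher in every R783H library, at 189.5, 191.5 and 187.0 CPM against 162.2, 158.9 and 156.5 in the WT libraries (log2 fold change 0.25, SE 0.04, edgeR adjusted p = 2.33e-04). Pole and Pola1 have the longest and the third longest transcripts of the 50 genes, at 7163 and 5346 nt, and fold changes in these libraries followed transcript length. Over 13758 tested genes with a length, Spearman's rho of log2 fold change with length was 0.252 (across genes, which are not independent replicates), and the median log2 fold change was -0.15 in the shortest of 10 equal bins of genes and 0.32 in the longest. Chaf1a, the second longest of the 50 at 5535 nt, and Rpa1 at 5077 nt were lower in R783H, and the offset described next took them from -0.33 to -0.47 and from -0.35 to -0.53. With an offset for length and GC content Pole was at -0.02 (edgeR adjusted p = 0.677, with 2.41e-05 to 0.677 over its 14 alternatives with edgeR and DESeq2) and Pola1 at -0.03, neither called. Trim71, with a transcript of 9332 nt, was at -0.27 with the offset (edgeR adjusted p = 0.00184).

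Over the 50 genes rho with length was 0.14, given as a description, and their median length was 2658 nt against 3007 nt for all genes. With the offset 37 of the 50 were called lower and 2 higher, where 37.2% and 30.5% of all genes were called, and the median was -0.29. With it Orc2 (-0.61), Cdc6 (-0.62) and Rrm1 (-0.59) joined the genes that changed at least 1.5-fold, which made 8 (22.7% of all genes did so), and Rfc1 (-0.14) was called lower and Cdt1 (0.19) and Prim2 (0.11) higher.

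**Figure D4:**
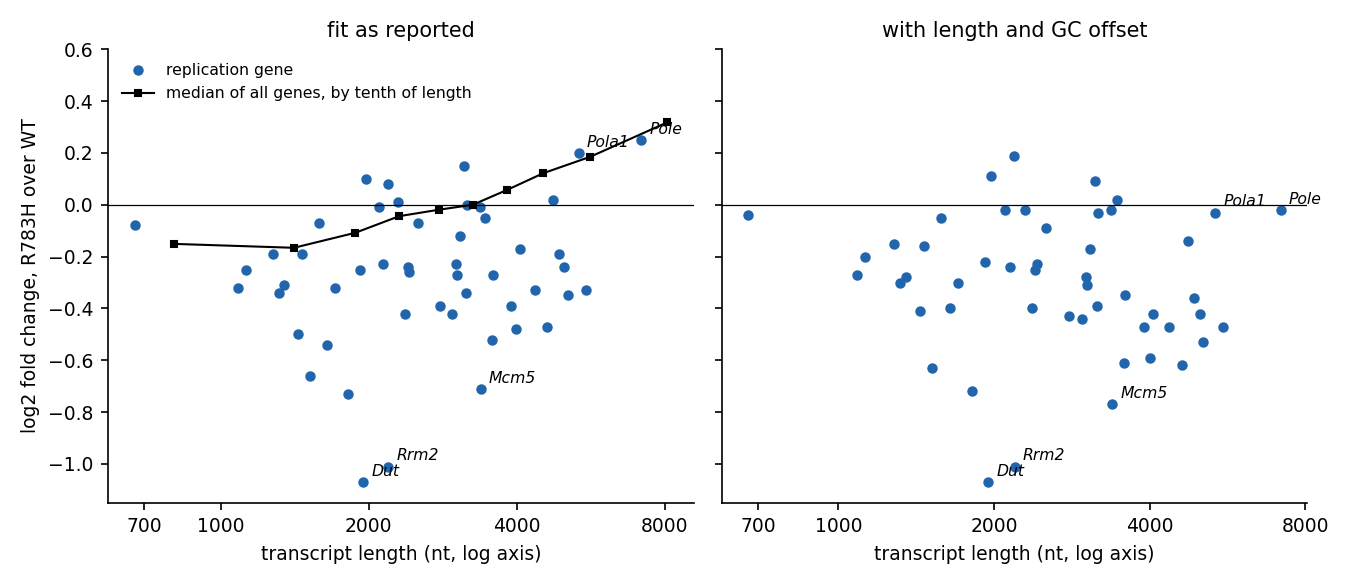
Log2 fold change of the 50 replication genes against transcript length (log axis), in the fit as reported (left, with the median of all genes in each of 10 bins of length as black squares) and with the length and GC offset (right). The black squares go from -0.15 in the first bin to 0.32 in the last; Pole and Pola1 lie near it at the left and near 0 at the right, while Dut, Rrm2 and Mcm5 stay low in both.

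Okazaki fragments are trimmed by FEN1 and sealed by LIG1. Fen1 had 131.1, 140.6 and 129.0 CPM in R783H against 185.1, 174.9 and 174.9 in the WT libraries, with a gap between the groups (log2 fold change -0.42, SE 0.05, edgeR adjusted p = 1.98e-05). Lig1 was at 637.5 ± 42.6 CPM against 635.4 ± 22.5 and did not pass (edgeR adjusted p = 0.944, n = 3 each). Relative to Lig1, Fen1 was lower by 0.42 in R783H on the log2 scale, without overlap (two-sided exact permutation p = 0.1). The ratios between subunits or partners were chosen after the values were seen, belong to a family of 8, and each had a Benjamini-Hochberg adjusted p of 0.1 in the exact permutation test.

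Chaf1a and Chaf1b, the genes of histone deposition on the list of replication genes, both fell. They encode subunits of chromatin assembly factor 1, which places histones on new DNA. Chaf1a had 190.6, 192.9 and 187.9 CPM against 245.4, 230.9 and 239.8 in the WT libraries, apart throughout (log2 fold change -0.33, SE 0.04, edgeR adjusted p = 4.22e-05). Chaf1b fell by 0.25 (SE 0.07), with R783H B at 119.0 CPM above WT C at 117.1, and was not called with scaling by library size alone (adjusted p from 1.23e-05 to 0.0515 over its alternatives with edgeR and DESeq2).

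Other genes of the pathway were taken from 4 lists of related factors, and 37 of their 58 genes fell (63.8%) and 7 rose, beside 30.9% and 33.5% of all tested genes. Of 28 other fork and initiation genes 16 fell and 4 rose, with a median of -0.21. Tipin, a fork protection factor, fell by 0.60 on the log2 scale, while Mtbp, an origin firing factor, and Atad5, which unloads PCNA, rose by 0.49 and 0.48. With the length and GC offset Mtbp was at 0.43 and Atad5 at 0.18. Of 13 other nucleotide supply genes 11 fell and 2 rose, with a median of -0.35. Dctpp1, a dCTP pyrophosphatase, had 102.0, 121.5 and 107.8 CPM in R783H against 224.0, 217.0 and 209.1 in the WT libraries (log2 fold change -0.97, SE 0.06). Nme1, a nucleoside diphosphate kinase, fell by 0.59, and Rrm2b, an alternative subunit of ribonucleotide reductase, rose by 0.69 (SE 0.17).

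Of 8 other histone chaperones 7 fell (median -0.42), led by Ssrp1 of the FACT complex (-0.59), Nasp (-0.54) and Asf1b (-0.45). Of 9 S-phase checkpoint genes 3 fell (33.3%, near the share of all genes) and 1 rose, with a median of -0.07. Atr, the checkpoint kinase, rose by 0.66 and stood at 0.31 with the length and GC offset. Rad1, part of the checkpoint clamp, fell by 0.46 and Cdc25a, the phosphatase that promotes S phase entry, by 0.35. Of 16 mitosis genes, given for comparison, 13 fell, and 8 changed at least 1.5-fold, all of them lower, with a median of -0.61 beside -0.26 for the replication genes. Cdc20 (-1.36), Aurka (-1.13) and Plk1 (-0.87) led them. No test compared the lists.

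**Figure D5:**
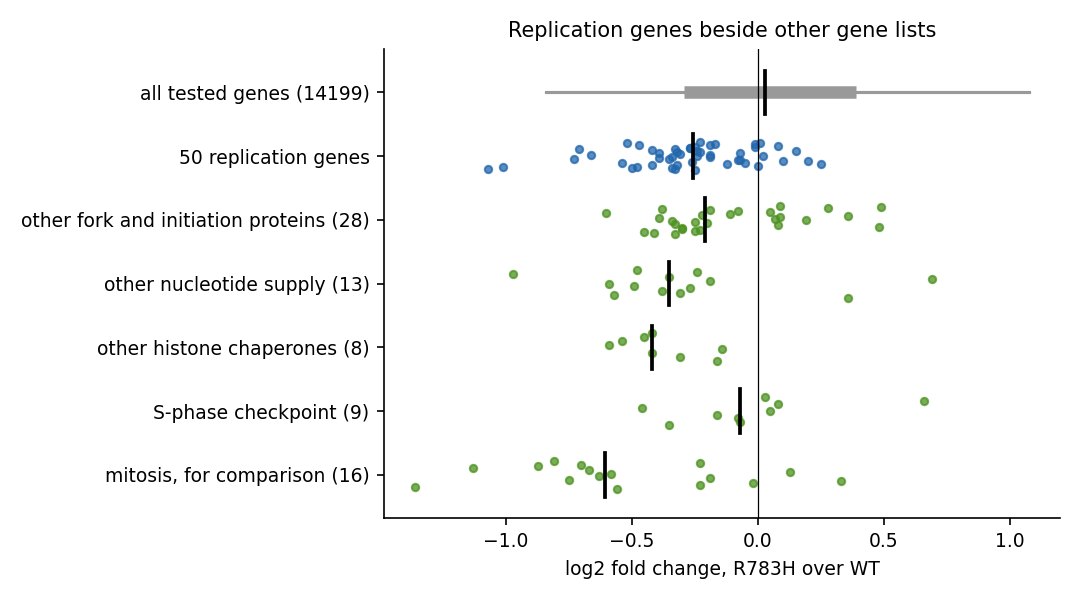
Log2 fold change (R783H over WT) of the 50 replication genes (blue) and of 5 other lists (green, number of genes in brackets), each point a gene; the grey bar shows the middle 50% and the thin line the middle 90% of all 14199 tested genes, and black ticks are medians. The replication median (-0.26) lies left of that of all genes (0.03) and right of that of the mitosis genes (-0.61).

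R783H B differed from the other R783H libraries in many of these genes. It was the highest of the 3 in 31 of the 50, where 40.5% of all tested genes had it highest, and the lowest in 10, against 40.8% of all tested genes. Without it, 38 of the 50 were called lower, 3 higher and 7 changed at least 1.5-fold, with a median of -0.31. Calls over all genes also increased, from 9152 to 9882, with 34.3% of genes lower, 34.7% higher and 26.6% changed at least 1.5-fold. Pold1 (-0.13) and Rpa3 (-0.10) were then called lower and Cdc7 (0.16) higher.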

How the data were processed

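RNA from 6 libraries of mouse embryonic stem cells, 3 R783H and 3 WT, was isolated with Trizol and selected with oligo(dT), per the labels. The authors deposited raw counts per Entrez gene, whole numbers with no normalization, with 1 column per alignment file, per the file headers. CASAVA 1.4, HISAT2, SAMtools and mm10 are named in the submitters' processing notes; the counting tool, annotation and use of strand are not given in the sources used here. Without known strand, reads of overlapping opposite-strand genes cannot be told apart, and 0 columns belonged to other samples.

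Symbols and coordinates came from RefSeq GRCm38.p6 (25275 identifiers matched). Lengths and GC came from the longest coding basic transcript in GENCODE M21 (96.9% of tested genes), and copies from BLAST 2.17.0 matches. In R 4.3.3, edgeR 4.0.16 kept 14199 genes (filterByExpr, minimum count 10, minimum total 15) and scaled with TMM. Its quasi-likelihood test, with group as the single term and Benjamini-Hochberg adjustment over all genes, called an adjusted p under 0.05. SE is the log2 fold change divided by the square root of F. The common biological coefficient of variation was 5.45%. Alternatives used other scalings and filters, DESeq2 1.42.0, an offset fitted on length and GC, equal depth, the replicate letter as a block, and each library left out.

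On simulated counts for 14007 tested genes of this comparison, the fit called 86 of 95 genes changed 2-fold and 78 of 99 changed 1.5-fold. There were 14 false calls, and 4 calls when no gene was changed. The simulation changed few genes and held no trend with transcript length, whereas 64.5% of tested genes were called in the data. Its error rates therefore do not carry over to the real comparison. Counting error covers sampling of reads only, since reads copied by PCR are not independent.

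The members and lists were chosen with earlier results of these data known. The rule for naming gave every library for the gene of each role with the largest change, for genes called at 1.5-fold or more, for Mcm2 to Mcm7 and for Pcna, and up to 3 called genes per other list. Values of further genes by library, and the ratios, were chosen after seeing the data.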

Additional observations from a re-analysis of the deposited data

How the results depend on the processing

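Of the 50 replication genes, 31 were called in the same direction under all 14 alternatives, 7 were called and lost that call or turned under at least 1, and 6 were called under none. From 8161 (without WT B) to 9882 (without R783H B) of all tested genes were called in each alternative. The share of all genes called under every alternative was not worked out. The number called lower stayed between 31 (library size alone) and 38 (without R783H B). The number called higher was 5 with library size alone and ran from 1 to 3 with a library left out, being 1 without R783H A, R783H C, WT A or WT B, where Pola1 lost its call. The number changed at least 1.5-fold was 8 with the length and GC offset. The median was -0.18 with library size alone, -0.29 with the offset and from -0.31 (without R783H B) to -0.25 with a library left out.

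Changes of sign touched genes near 0, apart from Pole and Pola1. Library size alone turned Orc5 to 0.07, Mcm2 to 0.07, Gins3 to 0.02, Rpa3 to 0.0016, Prim1 to 0.01 and Pold1 to 0.03. The offset turned Orc3 to -0.02, Rfc1 to -0.14, Pola1 to -0.03, Pold1 to 0.02, Pole to -0.02, Lig1 to -0.03 and Trim71 to -0.27. With RLE factors, and likewise with DESeq2, Orc3 was at -0.02, Rfc1 at -0.01 and Lig1 at -0.02. Orc5 was at 0.01 at equal depth and at 6.5e-04 when each library had to reach 10 counts. With a library left out, Orc3 ran from -0.03 to 0.01, Cdt1 from -0.0044 to 0.11, Mcm2 from -0.07 to 0.02, Rfc1 from -0.03 to 0.05, Lig1 from -0.07 to 0.03 and Trim71 from -0.02 to 0.13. The cause of these changes was not tested.

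The labels give both groups the letters A, B and C but do not say that a letter pairs libraries, so the letters were not taken as pairs. Deviations of same-letter libraries from their group means correlated at -0.07, 0.007 and 0.085. With 3 libraries in a group the deviations of a gene cancel out, so these correlations cannot decide whether the letters are pairs. R783H A and B correlated best with a WT library of another letter. The replicate block gave 9260 called genes in place of 9152 and, for the replication genes, 36 lower, 2 higher and a median of -0.26.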

Other observations

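Of the 13 other nucleotide supply genes 11 fell, Samhd1 (-0.35) and Dck (-0.24) among them, and 2 rose, Rrm2b and Tk2, which are counterparts of Rrm2 and Tk1. Rrm2b, the alternative small subunit of ribonucleotide reductase that works in resting and damaged cells, had 7.03 ± 1.3 CPM in R783H against 4.36 ± 0.964 in the WT libraries (SD, n = 3 each; log2 fold change 0.69, SE 0.17, edgeR adjusted p = 0.00476). The log2 ratio of Rrm2 to Rrm2b was 4.83, 5.39 and 4.76 in R783H A, B and C and 7.06, 6.68 and 6.37 in WT. Tk2, the mitochondrial thymidine kinase, was at 29.1 ± 0.898 CPM against 22.6 ± 1.27 (log2 fold change 0.36, SE 0.06, edgeR adjusted p = 4.33e-04). For Tk1 to Tk2 the log2 ratio was 1.12, 1.30 and 1.18 in R783H and 2.10, 1.95 and 2.13 in WT. Neither ratio overlapped between the groups, and each gave p = 0.1 in a two-sided exact permutation test, the smallest possible. With the length and GC offset Rrm2b stood at 0.46 and Tk2 at 0.35. Mcm8, a helicase of recombination related to the MCM2-7 subunits, rose by 0.36 (SE 0.08), while Mcm9 was not called (0.09, SE 0.06). Among all tested genes 33.5% were called higher, so a rise is common in this comparison. Rrm2b, Tk2 and Mcm8 were chosen after their values were seen.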
